A study of Mus musculus with 6 samples.

Results

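Ribosomal RNA is cut, chemically modified and folded in the nucleolus by a large set of proteins before the ribosomal subunits leave the nucleus. The genes described here are 45 such factors, chosen by name: the proteins of small nucleolar ribonucleoproteins (snoRNPs), of the small-subunit processome, and of the late precursors of the small (40S) and large (60S) subunits. A factor was measured where a probe set of the array carried its symbol and no other, and where a gene had several such probe sets the brightest, by its mean, was used. This gave 42 of the 45, all of which were bright enough to be tested, out of 22180 genes on the array and 14787 tested. For Fbl, Tsr1 and Mrto4 only probe sets shared with other symbols existed, and these are given separately.

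The cells were CD4+ T cells of OT II transgenic mice, 12 to 16 weeks old, whose transgenic T cell receptor recognises ovalbumin, so every group carries the same transgene. They were stimulated for 72 hours by antigen-presenting cells and an ovalbumin peptide, purified again as CD4+ cells, and lysed for RNA. The 3 control cultures were kept in complete RPMI-1640 with dialyzed serum, and the 3 low arginine cultures in the same medium with 1% of the normal arginine (12 uM). Labels call the arrays biological replicates of 6 mice in all, without saying which mice gave which array. The comparison asks how the genes of ribosome assembly differ between stimulated T cells deprived of arginine and fully supplied ones.

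Ribosome assembly starts with RNA polymerase I, which transcribes a single long precursor. Box C/D snoRNPs methylate it, box H/ACA snoRNPs turn chosen uridines into pseudouridine, the processome folds and cleaves the small-subunit part, and other factors mature the large-subunit part. T cells are known to enlarge their nucleoli and raise this machinery when they are activated, and the transcription factor Myc, which binds the E-box CACGTG, is a known activator of many of its genes.

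Values are log2 expression as deposited, with near-equal distributions on all arrays, so a change in the total RNA of a cell is not visible in them. In bulk RNA, fewer cells expressing a gene and less of its RNA per cell cannot be told apart. Over all probe sets, array medians ranged from 2.97 to 3.03. T cell identity was clear in every array: Cd3e lay at 10.77 ± 0.04 (SD, n = 3) in control and 10.87 ± 0.08 in low arginine, and Cd4 at 10.33 ± 0.12 and 10.09 ± 0.18. The B cell markers Cd79a and Ms4a1 lay near or under 2.48, the limit used for dim genes, in both groups. Of the 9 mitosis genes tested, 9 fell in low arginine (median change -2.34), a count that dropped to 2 when control replicate 2 was left out and to 6 when control replicate 3 was, to 1 on omitting low arginine replicate 2 and to 5 on omitting its replicate 3.

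Before any fold change, the arrays themselves have to be described, because control replicate 1 stood apart over these factors. It was the highest of the 3 controls for 39 of the 42 members, against 40.1% of all genes tested. Its median distance above the mean of the other controls was 0.94 on the log2 scale over the members and 0.01 over all genes tested. The other controls were ordered too, control replicate 3 being the lowest of the 3 for 36 of the 42 members, against 5583 of all 14787 genes tested. The low arginine arrays lay close together, at the level of control replicate 1. When each member was set against its own mean over the 6 arrays, the median deviations of the low arginine arrays were 0.29, 0.35 and 0.26, that of control replicate 1 was 0.36, and those of control replicates 2 and 3 were -0.47 and -0.70.

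**Figure D1:**
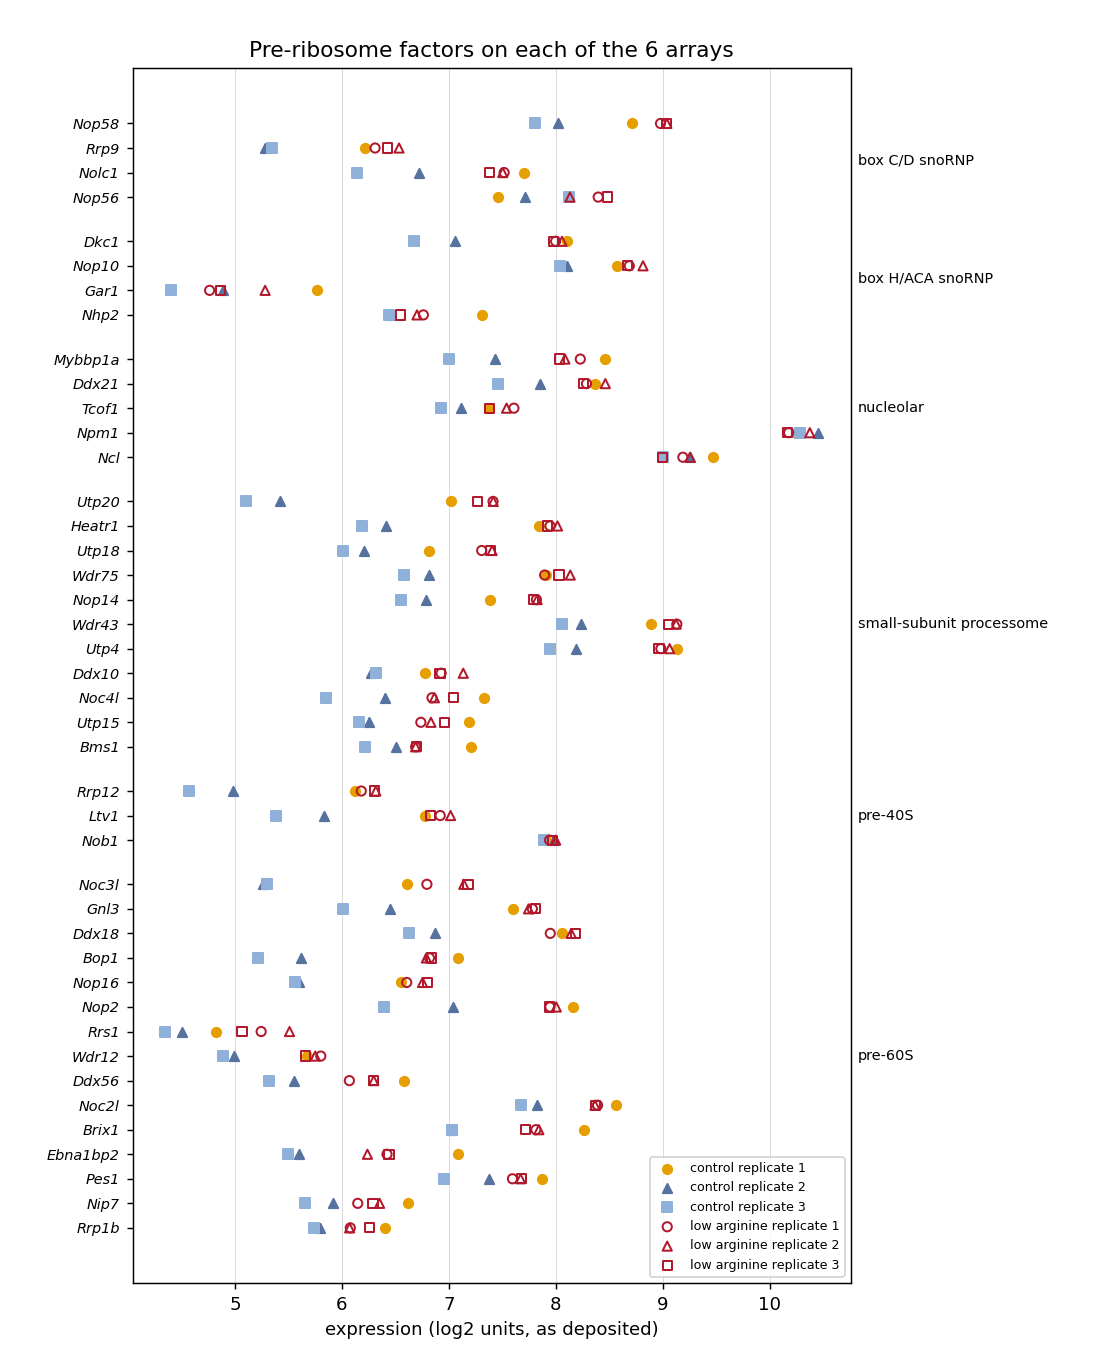
Expression of the 42 measured pre-ribosome factors (log2 units as deposited, horizontal axis) on each of the 6 arrays, 1 row per gene, grouped by role and ordered within a role by change. Filled symbols are control arrays and open red symbols low arginine arrays. The low arginine arrays lay above control replicates 2 and 3 for 38 of the 42 genes, while control replicate 1 lay above all of them for 19 and within their range for 5.

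Most factors had a higher mean in low arginine, but few of the differences were larger than the spread of the controls allowed. The mean was higher for 38 of the 42 members, with a median log2 change of 0.56 against 0.01 over all genes tested. By limma with Benjamini-Hochberg adjustment over all genes, 5 members rose: Noc3l by 1.32, Utp18 by 1.02, Nop14 by 0.90, Nop58 by 0.84 and Rrs1 by 0.72. Of all genes tested 12.2% changed in either direction, 5.19% rising and 6.98% falling, and 0 members fell by limma, where 0 members also had an unadjusted p below 0.05 in that direction. The 5 rises are 11.9% of the members, beside 5.19% of all genes rising. At an unadjusted p below 0.05, 20 members were higher, against 13.3% of all genes.

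The members' calls depended on which arrays were in the fit, and so did those over all genes. Without control replicate 1, 34 of the 42 members rose (11.0% of all genes rose and 11.5% fell in that fit), and their median change was 0.83. That array was singled out for being the highest control for 39 of these same members, so leaving it out was bound to raise most changes. Values without it, here and for single genes below, therefore describe how far the result hangs on that array. They are not a second test. With control replicate 2 left out instead, limma passed 0 members, with 10 higher at an unadjusted p below 0.05, while 1.1% of all genes rose. Leaving out low arginine replicate 1, 2 or 3 likewise gave 0, with 18, 12 and 18 at the unadjusted threshold, and leaving out control replicate 3 gave 2, Utp18 and Nop56. Of all genes, 2.25%, 1.09% and 1.35% rose without low arginine replicate 1, 2 and 3, and 3.92% without control replicate 3. Counts of 0 to 2 members are thus near the shares of all genes in those fits. With array weights, which gave control replicate 1 the lowest weight (0.239) and control replicate 2 the highest (5.19), 35 members rose, against 18.8% of all genes rising and 18.5% falling. The 8 members that did not pass without control replicate 1 were Bms1, Gar1, Ncl, Nhp2, Nob1, Nop56, Npm1 and Rrp1b.

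All 3 low arginine arrays lay above all 3 controls for 17 of the 42 members, and all below for 0, where 16.0% and 16.2% of all genes did so. Against control replicates 2 and 3 alone, the low arginine arrays lay above for 38 members and 26.5% of all genes. Control replicate 1 lay above all low arginine arrays for 19 members, within their range for 5 and below all of them for 18, where the shares of all genes were 35.8%, 30.4% and 33.7%. The change exceeded the whole range of the controls for 4 members, Utp18, Nop14, Ddx10 and Rrs1, which is 9.52% of the members against 29.2% of all genes tested.

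**Figure D2:**
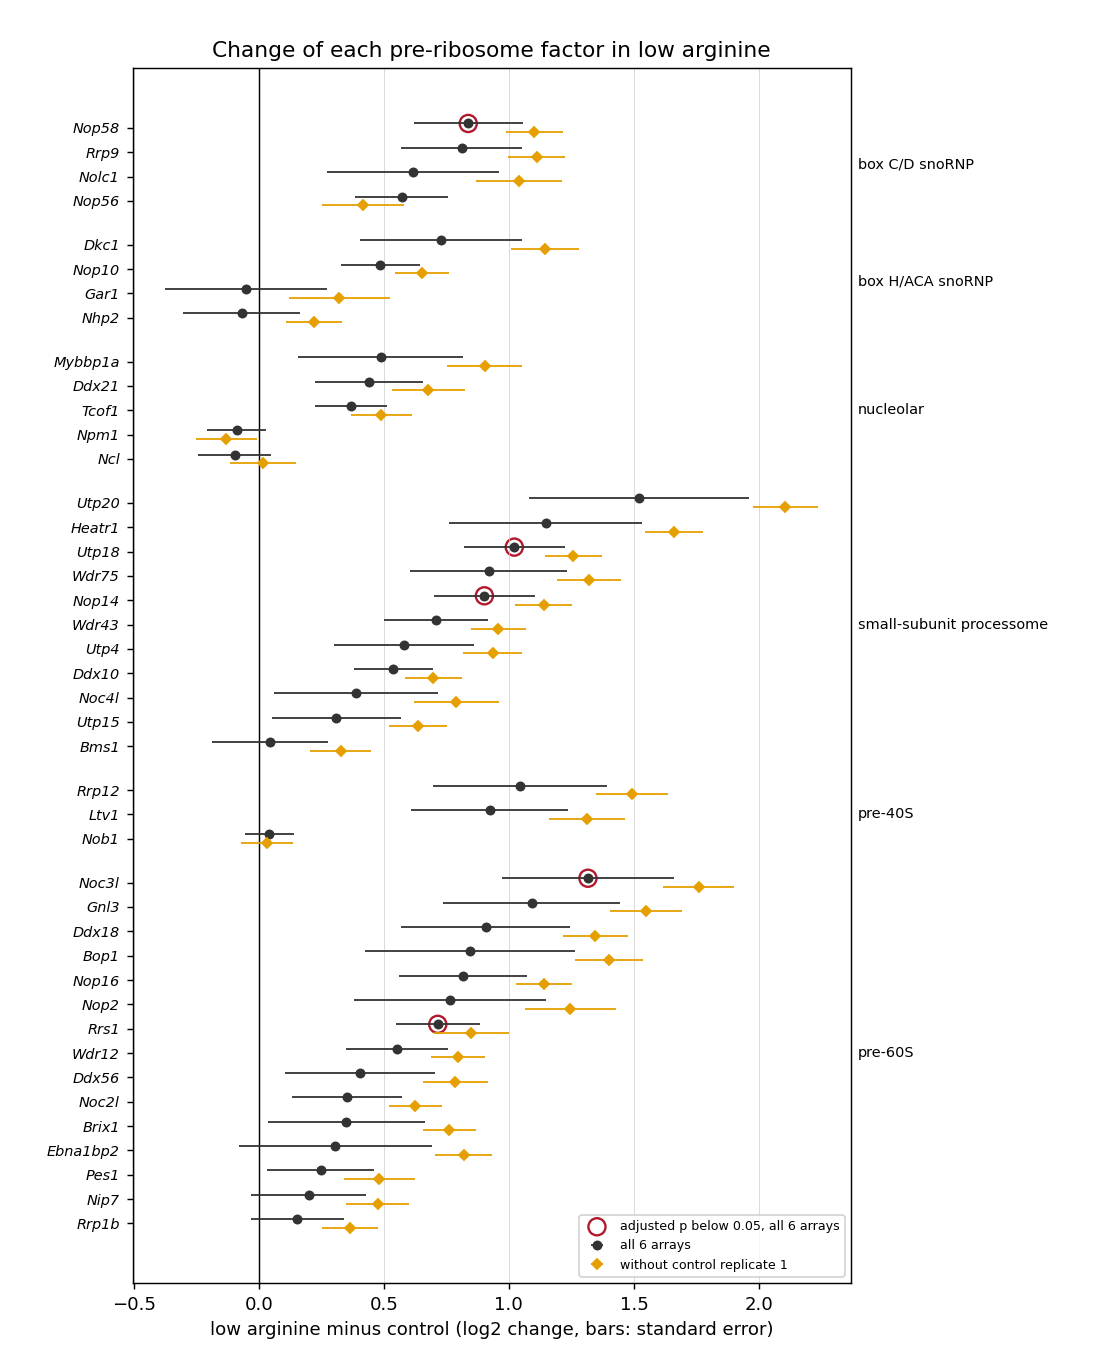
Log2 change of each factor (low arginine mean minus control mean) with its standard error from limma, for all 6 arrays (black circles) and without control replicate 1 (orange diamonds). Red rings mark the 5 members past an adjusted p of 0.05 with all arrays, and leaving out control replicate 1 moved the changes of 39 members upwards.

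The control arrays spread more over these genes than over all genes tested, while the low arginine arrays did not. Their SD over the 3 control arrays had a median of 0.54, from 0.05 for Nob1 to 1.03 for Utp20, against a median of 0.18 over all genes tested. Over the 3 low arginine arrays the median SD was 0.10, against 0.12 over all genes. The control SD was the larger for 41 of the 42 members, Npm1 being the exception, and for 66.2% of all genes. A wide control spread was not particular to the members. Over 98 other ribosome assembly factors, described below, the median control SD was 0.40, and the control SD was the larger for 91. An SD above 0.5 in control occurred for 23 members and 6.55% of all genes. Whether the spread differs between the media was not tested, with 3 arrays in each.

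**Figure D3:**
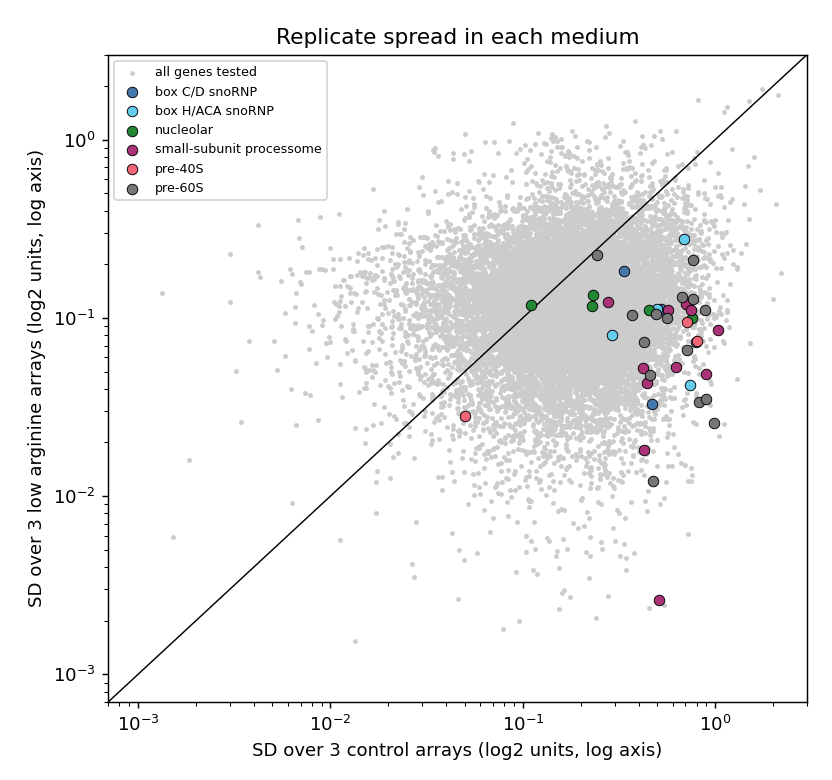
SD over the 3 control arrays (horizontal) against SD over the 3 low arginine arrays (vertical), both in log2 units on log axes, for all 14787 genes tested (grey) and the 42 factors (coloured by role). The diagonal marks equal spread, and 41 of the 42 factors lie below it.

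The regulatory sequence of the members is shown first by the E-box, the palindrome CACGTG on both strands, since Myc is a known regulator of this machinery. RefSeq promoter windows (GRCm38.p6, 250 bases before to 50 after the start) were at hand for 39 of the 45 genes, Tcof1, Fbl, Npm1, Rrp12, Bop1 and Rrs1 having none here. The E-box stood in the windows of 9 of these 39 genes. Counted by window, 9 of their 43 windows (20.9%) hold it, against 7.15% of all 32851 windows and 9.41% of those of genes tested. The matches are printed with up to 10 bases on each side, 5′ to 3′ on the gene's strand, the E-box in capitals, so that their flanks can be compared.

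Utp18, 20 bases before the start, chr11:93885771-93885796, minus strand: gagcgccggtCACGTGgcttgcggcg
Nop2, 60 bases before the start, chr6:125131813-125131838, plus strand: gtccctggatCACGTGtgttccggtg
Pes1, just after the start, chr11:3963967-3963992, plus strand: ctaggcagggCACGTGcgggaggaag
Utp4, just after the start, chr8:106893645-106893670, plus strand: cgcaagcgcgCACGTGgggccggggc
Wdr43, just after the start, chr17:71616222-71616247, plus strand: cccgggcgaaCACGTGgctgccgcgg
Tsr1, just after the start, chr11:74898094-74898119, plus strand: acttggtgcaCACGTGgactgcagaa
Ltv1, just after the start, chr10:13193094-13193119, minus strand: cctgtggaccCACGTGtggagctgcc
Utp20, near the window's end, chr10:88826765-88826787, minus strand: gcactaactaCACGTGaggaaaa
Mybbp1a, near the window's end, chr11:72441357-72441376, plus strand: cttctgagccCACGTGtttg

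Of the 9 genes with this match, 7 hold it after the annotated start and 2 before it. Of the 5 members that rose, 1 (Utp18) has the match, 3 (Nop14, Nop58 and Noc3l) have a window without it, and Rrs1 has no window here. A second motif, CCGGAAG on either strand, which is a known core of ETS factor sites, stood in the windows of 16 of the 39 genes. Counted by window, 17 of 43 (39.5%) hold it, against 8.86% of all windows and 15.0% of those of genes tested. Utp18 and Noc3l have it, the latter after the start, Nop14 and Nop58 do not, and 5 genes (Utp18, Nop2, Utp4, Ltv1 and Tsr1) hold both motifs. A match describes the letters in the window and shows no binding, and the array has no measure of binding. The 150 bases before the start are shown for the 4 members that rose and have a window, with either motif in capitals.

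Utp18, chr11:93885767-93885916, minus strand: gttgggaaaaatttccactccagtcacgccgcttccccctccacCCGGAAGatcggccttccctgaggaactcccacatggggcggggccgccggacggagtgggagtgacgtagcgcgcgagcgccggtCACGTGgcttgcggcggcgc
Nop14, chr5:34660149-34660298, minus strand: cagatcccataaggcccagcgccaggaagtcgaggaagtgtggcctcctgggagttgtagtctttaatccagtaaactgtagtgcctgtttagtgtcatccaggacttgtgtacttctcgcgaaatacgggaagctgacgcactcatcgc
Nop58, chr1:59684856-59685005, plus strand: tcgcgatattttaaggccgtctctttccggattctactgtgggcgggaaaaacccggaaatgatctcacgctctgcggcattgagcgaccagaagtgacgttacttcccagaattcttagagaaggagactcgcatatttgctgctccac
Noc3l, chr19:38819238-38819387, minus strand: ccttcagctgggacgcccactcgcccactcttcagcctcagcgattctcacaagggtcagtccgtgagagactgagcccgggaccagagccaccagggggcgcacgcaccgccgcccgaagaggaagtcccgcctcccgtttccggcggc

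Myc RNA itself lay at 8.78, 8.86 and 8.54 on control replicates 1, 2 and 3 and at 8.97, 8.91 and 9.01 on the low arginine arrays. Its groups did not overlap, yet the change of 0.24 did not pass (limma adjusted p = 0.258). Control replicate 1, high over the processing factors, was between the other controls for Myc. Of 9 genes of the Myc and Max family, 0 rose by limma (0 at an unadjusted p below 0.05) and 1 fell. They were Myc, Mycn, Max, Mlx, Mnt, Mxd1, Mxd3, Mxd4 and Mxi1, so the list holds repressors as well as Myc. The gene that fell was Mxi1, a repressor that competes with Myc for Max, by 1.40 (limma adjusted p = 0.0069). Of the same 9 genes 3 fell without control replicate 1 (33.3%, against 11.5% of all genes), and 1 fell without any other single array. With all arrays the 1 fall is 11.1% of the 9, against 6.98% of all genes.

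Among the box C/D snoRNP proteins, the core scaffold gene Nop58 rose. Its levels were 8.71, 8.02 and 7.81 on control replicates 1, 2 and 3 and 8.98, 9.04 and 9.03 in low arginine, a change of 0.84 ± 0.22 (SE; limma adjusted p = 0.0465), or 1.79-fold. Every low arginine array lay above every control, although control replicate 1 was only 0.31 below their mean. The call was lost when any of the other 5 arrays was left out (adjusted p = 0.0977 to 0.161), and without control replicate 1 the change was 1.103 (8.08e-04).

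Nop56, the partner of Nop58 in the same core, lay at 7.46, 7.72 and 8.13 in control and 8.40, 8.13 and 8.48 in low arginine. On the probe set used, it was 1 of the 3 members for which control replicate 1 was not the highest control. The change of 0.57 did not pass (limma adjusted p = 0.0901), and did not pass without control replicate 1 either (0.111). It passed without control replicate 3 (0.0341), with the mean of its probe sets (0.0161) and with array weights (0.00623). Its other probe sets, both dimmer, differed by 0.65 and 0.50, and 1 that also names Snord57, a snoRNA in its intron, by 0.50. Control SDs of the dimmer probe sets were 0.69 and 0.20, against 0.34 for the one used, so the control spread of Nop56 depends on the probe set.

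Rrp9, a protein of the U3 snoRNP that guides the first cleavages, differed by 0.81 (adjusted p = 0.0697) with no overlap between groups. Nolc1, a chaperone of snoRNPs in the nucleolus and Cajal bodies, differed by 0.62 (0.305), control replicate 1 lying at 7.70 above all low arginine arrays. Both rose without control replicate 1, by 1.11 and 1.04. Fbl encodes fibrillarin, the methyltransferase of these particles, and its probe set is shared with Tulp4. That probe set lay at 8.02 ± 0.43 (SD, n = 3) in control and 8.53 ± 0.23 in low arginine, and was not tested.

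The box H/ACA proteins were split. Dkc1 encodes dyskerin, the pseudouridine synthase, and lay at 8.11, 7.06 and 6.67 in control and 7.999, 8.06 and 7.98 in low arginine. Control replicate 1 was above all low arginine arrays, and the change of 0.73 did not pass (adjusted p = 0.195), while without that array it was 1.14 (0.00158). Nop10, the smallest core protein, differed by 0.49 (0.0891) and lay above all controls in each low arginine array.

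Gar1 and Nhp2, the other core proteins, showed no such difference. Gar1 lay at 5.76, 4.89 and 4.40 in control and 4.76, 5.28 and 4.86 in low arginine, a change of -0.05 ± 0.32 (SE; adjusted p = 0.948). Nhp2 lay at 7.31, 6.46 and 6.44 in control and 6.76, 6.70 and 6.54 in low arginine, a change of -0.07 ± 0.23 (0.899). For both, control replicate 1 was the highest of the 6 arrays, and without it the changes turned to 0.32 (adjusted p = 0.306) and 0.22 (0.215). Of the 4 particle proteins, then, 0 rose by limma with all arrays (1 at an unadjusted p below 0.05) and 2, Dkc1 and Nop10, without control replicate 1.

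Among the nucleolar proteins, Ncl and Npm1 had slightly lower means in low arginine and did not pass. Ncl encodes nucleolin, which binds nascent precursor RNA, and lay at 9.47, 9.25 and 9.01 in control and 9.19, 9.26 and 8.997 in low arginine (change -0.10 ± 0.15, SE; adjusted p = 0.745). Npm1 encodes nucleophosmin, a chaperone of the granular nucleolus, and lay at 10.25, 10.45 and 10.28 in control and 10.18, 10.38 and 10.17 in low arginine (change -0.09 ± 0.12, SE; 0.698). Their groups overlapped, and neither passed without control replicate 1 (adjusted p = 0.949 and 0.508). A second, dimmer probe set of Npm1 differed by 0.34 the other way, and Npm1 has near-identical processed copies in the genome that such probes may share.

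Tcof1 encodes treacle, a cofactor of RNA polymerase I, and lay at 7.38, 7.11 and 6.93 in control and 7.61, 7.54 and 7.38 in low arginine. The low arginine arrays were all above the controls, if only just for replicate 3, and the change of 0.37 did not pass (adjusted p = 0.141). Mybbp1a, a nucleolar protein that binds Myb and p53, lay at 8.46, 7.43 and 6.998 in control and 8.23, 8.09 and 8.04 in low arginine (change 0.49; 0.41). Ddx21, a helicase that links polymerase I with precursor processing, differed by 0.44 (0.244), and its second probe set by 0.44 as well. Control replicate 1 exceeded all low arginine arrays for Mybbp1a and lay within their range for Ddx21. Without it these 3 genes rose, by 0.49, 0.90 and 0.68.

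The small-subunit processome held 2 of the 5 rises and the largest change. Utp18, a subunit of its UtpB complex, lay at 6.82, 6.21 and 6.01 in control and 7.31, 7.40 and 7.39 in low arginine. The groups were well separated, the change of 1.02 ± 0.20 (SE; adjusted p = 0.0185) being 1.26 times the range of the controls. It kept its call without control replicate 1 (4.97e-04) or 3 (0.0404), and lost it on omitting control replicate 2 (0.0836) or any low arginine array (0.0546, 0.0818 and 0.0761).

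Nop14, which joins the processome with its partner Noc4l, lay at 7.38, 6.79 and 6.56 in control and 7.82, 7.83 and 7.79 in low arginine. The low arginine arrays differed from each other by little and lay 0.43 above control replicate 1 on average, for a change of 0.90 ± 0.20 (SE; adjusted p = 0.0282). Leaving out any array but control replicate 1 ended the call (0.0581 to 0.111). Noc4l itself differed by 0.39 (0.518), control replicate 1 at 7.33 being above all low arginine arrays.

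Utp20, a very large scaffold protein, showed the largest change of the members and did not pass. It lay at 7.02, 5.42 and 5.10 in control and 7.41, 7.41 and 7.27 in low arginine, a change of 1.52 ± 0.44 (SE; adjusted p = 0.0642). All low arginine arrays lay above all controls, but the controls spanned 1.92, the low arginine arrays 0.15. With the replicate number as a block it passed (0.0465), and without control replicate 1 it rose by 2.11 (1.25e-04).

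Heatr1, the UTP10 counterpart in the UtpA complex that binds the start of the precursor, lay at 7.84, 6.42 and 6.19 in control and 7.95, 8.02 and 7.92 in low arginine. The groups did not overlap, with control replicate 1 just 0.12 below the low arginine mean, and the change of 1.15 ± 0.39 (SE) did not pass (adjusted p = 0.0987). Other UtpA genes were Wdr75 (0.92, adjusted p = 0.102), Wdr43 (0.71, 0.0657), Utp4 (0.58, 0.231) and Utp15 (0.31, 0.513). Without control replicate 1 all 5 rose, from 0.64 for Utp15 to 1.66 for Heatr1.

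The helicase Ddx10 differed by 0.54 (adjusted p = 0.0668) with no overlap, and the GTPase Bms1 by 0.05 (0.934), control replicate 1 at 7.21 lying above low arginine arrays that were all at 6.69. The dimmer probe set of Bms1 differed by -0.16. Of the 11 processome genes, 10 rose without control replicate 1, Bms1 not passing (0.0953).

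Among the late pre-40S factors, Rrp12, an export factor, lay at 6.12, 4.98 and 4.56 in control and 6.18, 6.32 and 6.30 in low arginine. Control replicate 1 was 0.15 below the low arginine mean, and the change of 1.04 ± 0.35 (SE) did not pass (adjusted p = 0.0975). Ltv1, which loads and leaves the nascent subunit before its final maturation, differed by 0.92 (0.102). Both rose without control replicate 1, by 1.49 and 1.31.

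Nob1, the nuclease that makes the last cut of the small-subunit RNA in the cytoplasm, had the smallest change of the members tested. It lay at 7.91, 7.99 and 7.89 in control and 7.94, 7.999 and 7.97 in low arginine, a change of 0.04 ± 0.10 (SE; adjusted p = 0.842). Its control SD of 0.05 was the smallest of the members. Tsr1, a GTPase-like factor of the same particle, was measured only by a probe set shared with Srr, which lay at 6.62 ± 0.71 (SD, n = 3) in control and 7.48 ± 0.10 in low arginine.

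The pre-60S factors held the other rises with 2 of 15 measured genes. Noc3l, which works with Noc2l on early large-subunit particles, lay at 6.61, 5.26 and 5.30 in control and 6.79, 7.14 and 7.18 in low arginine. The low arginine arrays were above all controls, low arginine replicate 1 nearest to them, and the change of 1.32 ± 0.34 (SE; adjusted p = 0.047) was 2.49-fold. The call held only on leaving out control replicate 1, and not for the other arrays (0.0909 to 0.162). Noc2l differed by 0.35 (0.364), with control replicate 1 above the low arginine arrays.

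Rrs1, which brings the 5S RNA particle into the large subunit, lay at 4.82, 4.499 and 4.35 in control and 5.24, 5.51 and 5.06 in low arginine. Its groups did not overlap, and the change of 0.72 ± 0.17 (SE; adjusted p = 0.0325) was 1.501 times the range of the controls. The dimmer probe set of Rrs1 differed by 0.25, and with the mean of both the change was 0.49 (0.0679). This call, too, was lost on leaving out any of the other 5 arrays (0.0638 to 0.12).

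Gnl3 encodes nucleostemin, a nucleolar GTPase of proliferating cells, and lay at 7.60, 6.45 and 6.01 in control and 7.78, 7.75 and 7.81 in low arginine. Every low arginine array exceeded every control, control replicate 1 lying 0.18 below their mean, and the change of 1.09 ± 0.36 (SE) did not pass (adjusted p = 0.0909). Without control replicate 1 it rose by 1.55 (5.69e-04), and without any other single array it did not pass (0.183 to 0.261).

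Pes1, Bop1 and Wdr12 form a complex needed for large-subunit processing and cell growth. Bop1 lay at 7.08, 5.61 and 5.22 in control and 6.82, 6.79 and 6.84 in low arginine (change 0.85 ± 0.42, SE; adjusted p = 0.248). Pes1 lay at 7.87, 7.38 and 6.96 in control and 7.59, 7.67 and 7.68 in low arginine (change 0.25 ± 0.21, SE; 0.529). For both, control replicate 1 was the highest of all 6 arrays. Wdr12 differed by 0.55 (0.126). Without control replicate 1 the 3 genes rose by 1.40, 0.48 and 0.80.

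Of the 15 pre-60S genes 6 were higher at an unadjusted p below 0.05, and past limma's adjusted threshold stood Noc3l and Rrs1 alone. The helicase Ddx18 differed by 0.91 (adjusted p = 0.129), Nop16 by 0.82 (0.0813) and Nop2, the methyltransferase of the large-subunit RNA also known as a proliferation antigen, by 0.76 (0.255). Smaller differences were those of the helicase Ddx56 (0.41), Brix1 (0.35), Ebna1bp2 (0.31), Nip7 (0.20) and Rrp1b (0.15), with adjusted p from 0.456 to 0.683. For each of these 5 genes control replicate 1 lay above all low arginine arrays, by 0.72 for Ebna1bp2 against their mean. Of the 15 pre-60S genes 14 rose without control replicate 1, and Rrp1b did not pass (0.0526). Mrto4, measured only by a probe set shared with its pseudogenes, lay at 6.15 ± 0.68 (SD, n = 3) in control and 6.55 ± 0.03 in low arginine.

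Other genes of ribosome assembly were described from lists drawn up by their known roles. Of 98 further small-subunit, large-subunit and snoRNP assembly factors tested, 7 rose (7.14%) and 2 fell (2.04%), where 5.19% of all genes rose and 6.98% fell. The share that rose is thus near that of all genes. The median change of the 98 was 0.32. The largest rises were in Mdn1, the giant ATPase that strips factors from the pre-60S particle, by 1.83 (limma adjusted p = 0.00441), and Nol6, a processome protein, by 1.59 (0.0251). Nol8, Ppan, Ddx51, Aatf and Znhit6 rose by 1.35, 1.26, 0.79, 0.91 and 0.75. Riok1, a kinase of late 40S maturation, fell by 0.63 (0.0209) and Utp3 by 0.53 (0.0203). In the large-subunit list the lowest change was -0.28 (Senp3, adjusted p = 0.498), and in the snoRNP assembly list -0.33 (Rpap3, 0.227). The median change was 0.32 in the small-subunit list, 0.43 in the large-subunit list and -0.10 in the snoRNP assembly list, where 5 of 11 genes had a higher mean in low arginine.

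Control replicate 1 was the highest control for 85 of these 98 factors, and its median distance above the other controls was 0.67. Over the snoRNP assembly list alone, control replicate 1 stood at a median deviation of 0.38, the low arginine arrays at -0.03, 0.03 and -0.09, and control replicates 2 and 3 at -0.02 and -0.31, so the low arginine arrays lay near control replicate 2 there. Of all 98 factors, 58 rose (59.2%) and 4 fell (4.08%) without control replicate 1, against 11.0% and 11.5% of all genes. Omitting control replicate 2 or 3 left 2 or 4 rises and 0 or 2 falls, and omitting low arginine replicate 1, 2 or 3 left 2, 1 and 1 rises and 0 falls. In these fits, in the same order, 2.04%, 4.08%, 2.04%, 1.02% and 1.02% of the factors rose, against 1.1%, 3.92%, 2.25%, 1.09% and 1.35% of all genes. Of all genes 2.29%, 5.33%, 4.48%, 2.35% and 2.65% fell.

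The RNA exosome, which trims precursor ends, had 2 rises (Exosc10 by 0.56 and Exosc5 by 0.49) and 1 fall (Exosc8 by 1.009) among 13 genes tested, with a median change of 0.20. These are 15.4% rising and 7.69% falling, against 5.19% and 6.98% of all genes. Exosc1 differed most upwards, by 0.82 (limma adjusted p = 0.0718). Exosome rises numbered 5 on omitting control replicate 1 (38.5%, against 11.0% of all genes) and 0 on omitting another array. On omitting control replicate 3, 2 exosome genes fell (15.4%, against 5.33% of all genes). RNA polymerase I and its factors had 2 rises (Taf1a by 1.02 and Polr1a by 0.93) and 2 falls (Taf1d by 1.098 and Polr1d by 0.71) among 11 genes, 18.2% each way. Polr1b differed by 1.03 (0.0978). Polymerase rises numbered 5 (45.5%) when control replicate 1 was omitted, 0 for control replicate 2 and 1 for control replicate 3. They numbered 1, 0 and 1 for low arginine replicates 1, 2 and 3. A count of 1 is 9.09% of so short a list.

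Cytosolic ribosomal proteins, the structural parts of the finished ribosome, had another pattern over the arrays. Of 78 listed genes 59 had a probe set of their own, 57 were tested, and 1 rose (Rps20, by 1.098; limma adjusted p = 0.00974), with a median change of 0.08. That 1 rise is 1.75% of the 57 genes, against 5.19% of all genes rising. The rises numbered 2 (3.51%) without control replicate 1 or 3, where 11.0% and 3.92% of all genes rose. They numbered 0 without low arginine replicate 2, where 1.09% did. The lowest change was -0.36 (Rpl26, 0.169). Control replicate 1 was the highest control for 9 of the 57 genes, and its median distance from the other controls was -0.15. Probe sets of ribosomal protein genes may share sequence with their many processed copies.

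**Figure D4:**
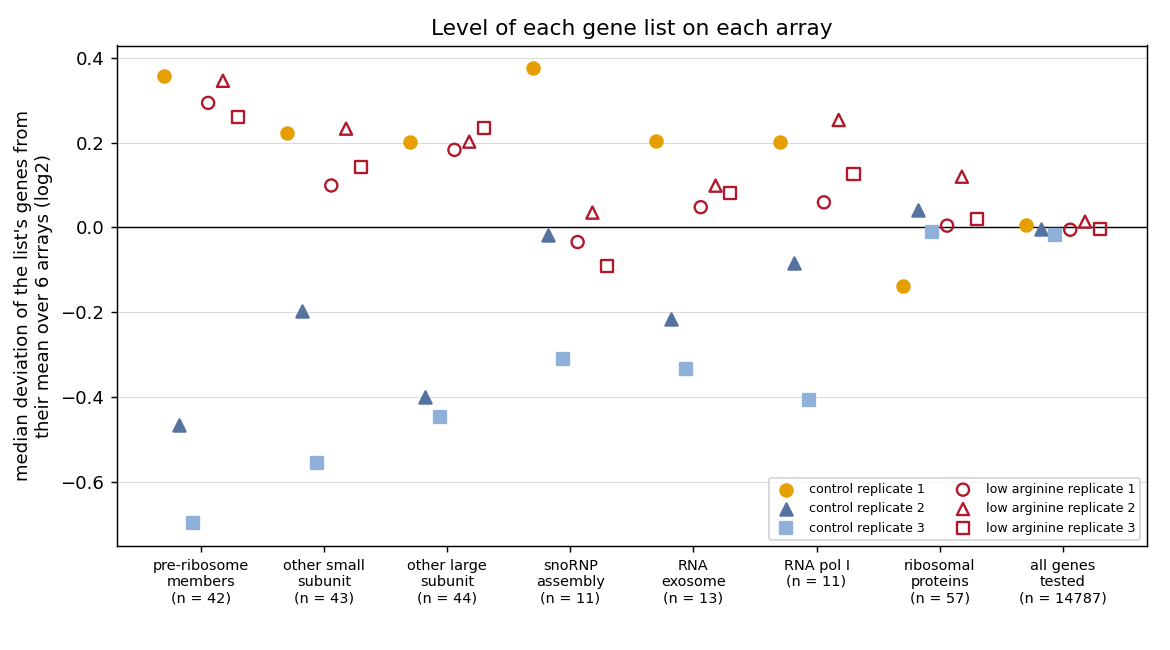
Median deviation of the genes of each list from their mean over all 6 arrays (log2 units, vertical axis), 1 symbol per array, filled for control and open red for low arginine; n is the number of genes tested. Over the members control replicate 1 (0.36) lies above the low arginine arrays (0.26 to 0.35) and control replicates 2 and 3 lie at -0.47 and -0.70, while all arrays lie near 0 over all genes tested.

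Markers of other cells moved with the media in part. The summed level of the 8 macrophage and dendritic cell markers (log2 of the summed linear values) was 7.39 to 8.08 in control and 6.57 to 6.61 in low arginine, carried by H2-Ab1, which fell by 3.06, while Lyz2, Adgre1 and H2-Aa lay under the dim limit in both groups. Of the 5 markers of that list tested, 1 fell and 0 rose by limma (0 higher at an unadjusted p below 0.05). The other 4 tested had slightly higher means in low arginine: Cd68 by 0.21, Csf1r by 0.18, Flt3 by 0.22 and Itgax by 0.03. So the fall of the sum is that of H2-Ab1 and not of the list as a whole. The 5 CD8 and NK cell markers matched summed to 6.90 to 7.53 in control and 6.56 to 6.86 in low arginine, the 5 B cell markers to 5.03 to 5.19 and 5.08 to 5.15, and the 8 T cell markers to 12.65 to 12.73 and 12.56 to 12.64. Control replicate 1 had the lowest sums of the controls for the myeloid, CD8 and NK, and T cell lists. Their part in the levels of the processing factors was not tested.

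Mitosis genes set the arrays apart in another way than the processing factors did. Their median deviations were 1.08, 1.005 and 1.11 on control replicates 1, 2 and 3, and -0.14, -1.37 and -1.70 on low arginine replicates 1, 2 and 3. So the controls were alike and the low arginine arrays spread, where over the processing factors the controls spread and the low arginine arrays were alike.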

How the data were processed

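Total RNA of 6 cultures was hybridised to 1-colour whole-transcript arrays. The deposited values were taken as log2 expression per probe set, from their range (0.956 to 12.41) and the array type. The submitters' processing notes list oligo, with no version. Any background correction, normalization or summarization method is not given in the sources used here; sorted by value, the arrays differed by at most 0.199. No detection calls or scanner signals were used, and the number of arrays limits the precision.

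Of 41345 probe sets, 23521 carried 1 gene symbol, 1814 several and 16010 none. The brightest probe set of a gene by mean stood for it (22180 genes). The dimmest share of 0.333 (limit 2.48) was left out and 14787 genes were tested with limma 3.58.1 in R 4.3.3, group only, two-sided, Benjamini-Hochberg adjusted over all genes, threshold 0.05. Changes are low arginine minus control. The fit was also run on simulated data with equal spread in both groups and no array shifted over many genes. The members' values differ on both points, so that run does not bear on their calls.

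The members and lists were chosen with earlier results of these data known. The rule for named genes gave per-array values for 11 genes whatever their result, the 4 largest and 4 lowest changes, the member with the largest change in each role and every member past the threshold; from other lists, the largest and lowest change and Myc. Others were named where counts were 5 or fewer, or after their values were seen. Alternatives were quantile normalization, centring on the median or 75th percentile, other dim filters, the mean of probe sets, another prior, array weights, the replicate block and leaving out each array.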

Additional observations from a re-analysis of the deposited data

How the results depend on the processing

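The count of members that rose (5) was 3 with arrays centred on the median or on the 75th percentile, 3 when dim genes were kept, and 35 under array weights. Of all genes, 5.19% rose in the first fit, 4.33% and 3.62% with these centrings, 3.36% with dim genes kept and 18.8% with array weights. Leaving out 1 array at a time gave 0 to 34 rises, and 0 falls in every setting. In the fits without 1 array, 1.09% to 11.0% of all genes rose. The other ribosome assembly factors that rose (7) numbered 11 with a stricter dim filter (11.2%, against 7.17% of all genes). They numbered 57 with array weights (58.2%, against 18.8%) and 1 to 58 without single arrays. Those that fell (2) numbered 7 with array weights (7.14%, against 18.5% of all genes) and 0 to 4 without single arrays. Over all genes, 1799 changed, 5514 with array weights and 500 to 3325 without single arrays. With centring on the 75th percentile, which shifts the median of all genes to -0.05, 535 genes rose and 1190 fell. The causes of these moves were not tested. The members' median change (0.56) stayed above 0 in all 15 alternatives.

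Changes near 0 changed sign: Gar1 was at 0.12 with array weights and -0.3589 to 0.3231 on leaving out single arrays (0.0537 and 0.0042 for low arginine replicates 1 and 3), Nhp2 at 0.18 with array weights and -0.2174 to 0.2203 on leaving out single arrays, Ncl at -0.2138 to 0.0172 likewise, Nob1 at -0.0178 centred on the 75th percentile and -0.0002 with array weights, and Npm1 at 0.13 with the mean of its probe sets. None of these passed.

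Of the 5 rises, Noc3l did not pass with centring on the median (adjusted p = 0.0505), Nop58 with either centring (0.0556 and 0.061), both of them without a dim filter (0.0593 and 0.0562), and Rrs1 with quantile normalization (0.0568), 75th percentile centring (0.0532) or the mean of its probe sets (0.0679).

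With the replicate block 4 members rose, 3 of them shared with the fit without it, Noc3l and Nop58 not passing (adjusted p = 0.0653 and 0.0532). In that fit 1568 genes changed in all, 4.27% of all genes rising and 6.33% falling. The labels give no shared animal or day for a number. Deviations of same-numbered arrays correlated at 0.121, 0.059 and 0.141 over all genes, and those of unlike number at -0.134 to 0.043. Each array correlated best with its own number, control replicate 2 only narrowly (0.059 against 0.043). Over the members the same-numbered values were -0.124, 0.158 and 0.014, and the others ran from -0.3 to 0.148. Deviations are taken from the mean of each group, so these values are not independent. They cannot establish a pairing.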
